A study of Homo sapiens with 16 samples.

Results

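SK-N-BE(2) cells are a human neuroblastoma line that carries amplified MYCN, and here 2 shortened forms of the transcription factor HIF-2α were compared in it by RNA-seq. The 4 libraries of cells transfected with the form labelled cIDR were set against the 4 libraries of cells transfected with the form labelled NCTAD, that is 8 of the 16 libraries of the series. The design text writes these forms Δc-IDR and ΔN-CTAD, so both are read as HIF-2α lacking the named region, while the sample labels carry no Δ. The other groups were wild-type cells (WT, 4 libraries) and cells given full-length HIF-2α (FL, 4 libraries). They served as a background and also entered the fit behind the p-values, where all 16 libraries share 1 estimate of the spread. All groups were the same line grown at 21% O2 in DMEM with 10% serum, and their stranded poly(A) libraries came from 250 ng of RNA with 13 PCR cycles. Batch is a number from 1 to 4 in the labels, identical to the replicate number, so each batch holds 1 library of each group. The labels do not give the residues deleted, the vector, the time between transfection and harvest, an empty-vector control, or whether replicates were separate cultures. P-values therefore measure only the spread between these libraries, which may be technical. Column headings of the tables name the line BE2c and differ from the labels: the columns headed WT hold the libraries labelled FL, those headed CTRL the libraries labelled WT, and those headed NTAD the libraries labelled NCTAD. Groups follow the labels throughout.

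HIF-2α, encoded by EPAS1, pairs with ARNT and binds the hypoxia response element, a short DNA motif near oxygen-regulated genes. With oxygen present, prolyl hydroxylases normally mark HIF-α proteins for VHL-dependent destruction, and without oxygen the proteins accumulate and switch on genes of glycolysis, matrix, angiogenesis and iron handling. In neuroblastoma HIF-2α has been studied for its link to the developing sympathetic lineage.

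Libraries held 38.6 to 56.1 M estimated counts, and 19530 of 63187 genes passed the low-count filter. All 10 neuroblastoma markers, among them HAND2 and DBH, passed it, and their summed level was 5110 to 6360 CPM (counts per 1 M counts, on TMM-scaled library sizes) in cIDR and 5140 to 6400 CPM in NCTAD. Summed markers were at 27.8 to 69.5 CPM in cIDR and 26.9 to 71.3 CPM in NCTAD for fibroblasts, 8.47 to 10.5 and 8.07 to 10.3 CPM for epithelium, 4.21 to 5.93 and 3.29 to 6.02 CPM for Schwann cells, 0.542 to 2.15 and 0.538 to 1.82 CPM for endothelium, and 0.135 to 0.581 and 0.262 to 0.615 CPM for immune cells. COL1A2, CDH1, SOX10, PECAM1, CLDN5, PTPRC, CD3E and CD79A did not pass the low-count filter. Batch 2 stood apart in all 4 groups: PFKP, AK4 and NDUFA4L2, for example, were at 33.0, 27.0 and 63.4 CPM in its WT library, against at most 8.64, 3.47 and 0.549 CPM in the WT libraries of batches 1, 3 and 4. Each result below is therefore a difference within batches, from a fit with batch as a term, and values by library are given in the order of batches 1 to 4.

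EPAS1 (ENSG00000116016.14, chr2:46297407-46386697) encodes the protein that was transfected, so its level checks the labels. It was 13.0, 28.1, 17.3 and 14.3 CPM in WT, 2200, 1320, 4230 and 3660 CPM in NCTAD, and 4080, 2190, 5850 and 5820 CPM in cIDR. All libraries of both forms stood far above WT, cIDR was above NCTAD in 4 of 4 batches, and the ranges of the 2 forms overlapped. The cIDR minus NCTAD difference was 0.69 ± 0.30 (log2 fold change ± SE) with a 95% interval of 0.013 to 1.36, and it did not pass the threshold (edgeR adjusted p = 1). On the deposited TPM values, which scale for transcript length, the difference was 0.38. Endogenous and transfected transcripts are counted together, and a shortened construct yields fewer fragments per copy. A larger amount of construct and a different form cannot be told apart in any gene below, since the EPAS1 level moved with the form in each batch.

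ARNT, the dimer partner, differed by −0.060 ± 0.061 and HIF1A, the paralogous subunit, by −0.051 ± 0.11. MYCN, the amplified oncogene of this line, differed by 0.021 ± 0.047. HIF3A, a further paralogue, stood at 0.65 ± 0.35 with 0.215 to 3.09 CPM in NCTAD and 0.311 to 4.70 CPM in cIDR, and this difference reversed on TPM values. None of the 15 genes of the HIF machinery list (subunits, hydroxylases, VHL, coactivators) was called by edgeR with batch over 16 libraries, and EPAS1 was the one member at an unadjusted p under 0.05. On the 8 libraries alone, where WT and FL do not enter the spread, edgeR called EPAS1 (0.70 ± 0.061, adjusted p = 0.00266).

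One gene parted the forms at the threshold used, a Benjamini-Hochberg adjusted p under 0.05 in edgeR's quasi-likelihood test. It was PFKP, the platelet-type isoform of phosphofructokinase, which was higher with cIDR, and it made up 0.00512% of the genes tested. Without batch as a term no gene was called, and that choice of model was made with earlier results of these data known. At an unadjusted p under 0.05, 212 genes (1.09%) were higher in cIDR and 207 (1.06%) lower, and without batch as a term these counts were 63 and 56. A difference of the same sign in 4 of 4 batches was seen for 855 genes (4.38%) higher in cIDR and 1182 (6.05%) lower. Libraries of the 2 forms did not overlap at all for 59 genes (0.302%) higher in cIDR and 80 (0.410%) lower. The median difference over all 19530 genes was −0.007. The genes described next are the 12 on each side with the smallest unadjusted p, a mean of at least 1 log2 CPM and the same sign in all batches, and PFKP is one of the 12 above zero. All 24 were thus chosen by this same contrast, and those other than PFKP are given as values, not as changes.

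**Figure D1:**
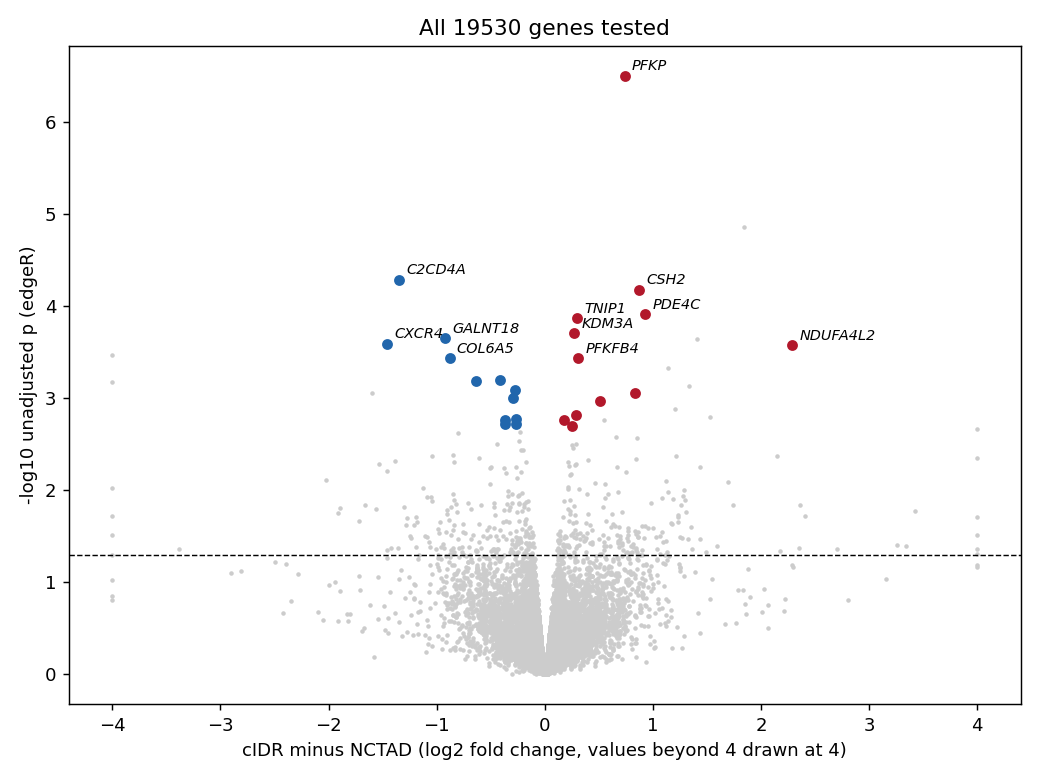
Each point is 1 of the 19530 genes tested, with the cIDR minus NCTAD difference (log2 fold change) on the x axis and −log10 of the unadjusted edgeR p-value on the y axis, where the dashed line marks a p-value of 0.05. Red and blue points are the 12 described genes higher and the 12 lower in cIDR, and PFKP, at 0.74, stands above all other points.

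Promoter sequence is shown for the described genes with the largest differences, NDUFA4L2 above zero and CXCR4 and C2CD4A below. Each is the 250 bases before the most upstream start that the promoter table lists for the gene (RefSeq, GRCh38.p14), written 5′ to 3′ on the strand of the gene, and capitals mark the core of the hypoxia response element, ACGTG or GCGTG on either strand. The regions, each directly before the RefSeq span of its gene, are chr12:57240763-57241012 on the minus strand for NDUFA4L2, chr2:136118150-136118399 on the minus strand for CXCR4 and chr15:62066727-62066976 on the plus strand for C2CD4A.
NDUFA4L2: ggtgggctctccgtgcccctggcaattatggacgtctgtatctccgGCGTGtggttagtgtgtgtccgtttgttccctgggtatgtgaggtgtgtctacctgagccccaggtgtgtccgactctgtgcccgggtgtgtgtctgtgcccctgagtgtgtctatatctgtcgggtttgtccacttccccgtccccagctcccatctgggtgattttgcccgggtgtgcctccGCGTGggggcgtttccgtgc
CXCR4: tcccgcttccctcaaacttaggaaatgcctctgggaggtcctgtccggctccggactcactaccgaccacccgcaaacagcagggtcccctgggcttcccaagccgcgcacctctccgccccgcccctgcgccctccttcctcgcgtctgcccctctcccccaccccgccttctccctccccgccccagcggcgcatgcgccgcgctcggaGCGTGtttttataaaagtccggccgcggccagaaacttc
C2CD4A: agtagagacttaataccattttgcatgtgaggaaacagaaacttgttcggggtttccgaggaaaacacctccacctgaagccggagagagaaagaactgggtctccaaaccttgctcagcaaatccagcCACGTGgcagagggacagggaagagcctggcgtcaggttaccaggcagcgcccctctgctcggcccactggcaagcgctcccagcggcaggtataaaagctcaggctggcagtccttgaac
NDUFA4L2 has 2 cores, CXCR4 has 1, and C2CD4A has 1 palindrome, CACGTG, which holds the core on both strands. Of the described genes with a promoter in the table, 8 of 10 higher in cIDR and 4 of 8 lower in cIDR held at least 1 core, and 43.1% of 27305 promoters of this length did so. The table does not list the start of every transcript: the windows of PFKP, TNIP1, KDM3A, PFKFB4 and FBN1 lay inside the RefSeq span of the gene, and the window of PFKP held no core. Among the 13 windows wholly before the span, 6 of 6 higher and 3 of 7 lower in cIDR held one. The share over all promoters limited in the same way was not computed, so these counts have no background. Limiting the windows in this way also left out PFKP and TNIP1, which are higher in cIDR and held no core. GC content differed among the 18 windows, from 39.2% in SEMA5B to 85.6% in UBE2QL1, and its part in these counts was not tested. The choice of start was made after the windows had been looked at, and a match describes the letters only.

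PFKP (ENSG00000067057.19, chr10:3067548-3136805) commits fructose phosphate to glycolysis. Its level was 8.45, 32.9, 9.66 and 8.86 CPM in NCTAD and 17.5, 55.2, 13.8 and 14 CPM in cIDR, with 7.22, 33.0, 8.64 and 7.53 CPM in WT. Within every batch cIDR was above NCTAD, whereas NCTAD lay close to WT, and batch 2 was the high library of each group, so that the ranges of the 2 forms overlapped. The within-batch differences were 1.05, 0.75, 0.51 and 0.65 on the log2 scale. The fitted difference was 0.74 ± 0.084, or 1.68-fold, with a 95% interval of 0.55 to 0.94 (edgeR adjusted p = 0.00609). The call was lost without batch as a term (0.75, adjusted p = 1), on log2(TPM + 1) with limma (0.68, adjusted p = 0.0635), without NCTAD replicate 1 (0.71, adjusted p = 0.0652) or 2 (0.71, adjusted p = 0.0519), and without the whole of batch 2 (0.75, adjusted p = 0.167), 3 (0.82, adjusted p = 0.0765) or 4 (0.77, adjusted p = 0.123). Its size stayed between 0.64 and 0.82 in all 21 alternatives.

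Enzymes that make or turn over fructose bisphosphates, PFKP included, were followed as a list of 9 genes, chosen with earlier results known. Of these 1 was called, against 0.00512% of all genes. That 1 was PFKP itself, the only call among all genes, so the share called says nothing about the other members. At an unadjusted p under 0.05, 2 (22.2%), PFKP and PFKFB4, were above zero, against 1.09% of all genes. Among the members other than PFKP, PFKFB4 alone was at that p. Without batch as a term 0 of the 9 were at that p. PFKFB4, a bifunctional enzyme that sets the level of the allosteric activator of phosphofructokinase, was at 8.97, 36.5, 7.95 and 6.99 CPM in NCTAD and 10.5, 49.5, 8.74 and 9.32 CPM in cIDR. cIDR was again higher in 4 of 4 batches, with overlapping ranges, and the difference was 0.31 ± 0.068 (edgeR adjusted p = 0.513). The liver isoform PFKL stood at 0.10 ± 0.066 and the muscle isoform PFKM, the most abundant of the 3 on the TPM scale at a mean of 139 TPM in cIDR and 140 TPM in NCTAD, at 0.0051 ± 0.041. PFKFB3 stood at 0.091 ± 0.085, PFKFB1, at 2 to 16 counts a library, at 0.46 ± 0.52, PFKFB2 at −0.039 ± 0.12, the phosphatase TIGAR at 0.018 ± 0.079 and the gluconeogenic phosphatase FBP1 at 0.039 ± 0.18. PFKFB1 was −0.60 in batch 1 and 1.97 in batch 2, and its fitted value was 0.016 without NCTAD replicate 2, 0.77 without batch 1 and 0.037 on log2(TPM + 1). The signs of PFKM, PFKFB2, PFKFB3, TIGAR and FBP1 flipped under at least 1 alternative. Of the 3 phosphofructokinase isoforms, PFKP was the one called. Whether its difference exceeds that of PFKL or PFKM was not tested.

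**Figure D2:**
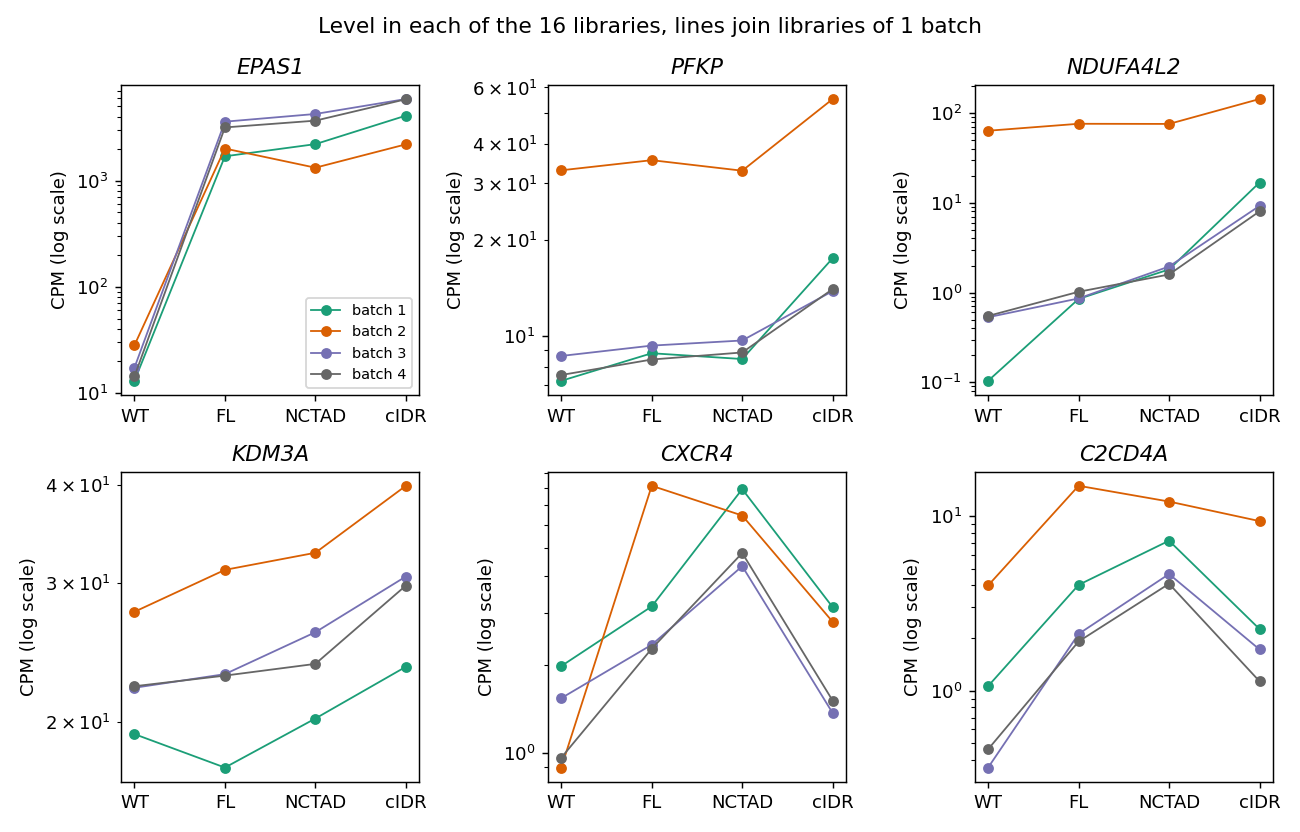
Level of 6 genes (CPM, log y axis) in each of the 16 libraries by group on the x axis, with lines joining the 4 libraries of a batch. PFKP, NDUFA4L2 and KDM3A lie higher in cIDR than in NCTAD along every line and CXCR4 and C2CD4A lower. Batch 2 lies apart in PFKP, with 55.2 CPM in cIDR against 13.8 to 17.5 CPM in the other batches, but is not the extreme of either form in CXCR4.

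NDUFA4L2 (ENSG00000185633.11, chr12:57234903-57240762), a mitochondrial protein gene known as a hypoxia target, had the largest difference among the described genes above zero. NCTAD libraries held 1.81, 75.5, 1.95 and 1.59 CPM and cIDR libraries 16.8, 143, 9.23 and 8.02 CPM. The 3 cIDR libraries outside batch 2 were all above the 3 NCTAD libraries outside it, and the batch 2 libraries were the highest of their groups. The difference was 2.29 ± 0.48, or 4.90-fold (edgeR adjusted p = 0.470), and it was 0.92 in batch 2 against 2.22 to 3.18 in the others. It passed the threshold in edgeR without cIDR replicate 2 (2.94, adjusted p = 0.0149) and with no low-count filter (2.31, adjusted p = 0.000533). Its size was 1.13 with no batch term and 1.73 without cIDR replicate 1.

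Further hypoxia and metabolic genes lay higher in cIDR in each batch without passing the threshold in the edgeR fit with batch over 16 libraries. KDM3A, a histone demethylase, was at 20.2, 32.8, 26.0 and 23.7 CPM in NCTAD and 23.5, 39.9, 30.6 and 29.8 CPM in cIDR. Its 4 batch differences lay between 0.22 and 0.33, the ranges of the forms overlapped, and the fitted value was 0.27 ± 0.054 (edgeR adjusted p = 0.470), which passed the threshold in DESeq2 with batch (adjusted p = 0.027). AK4, a mitochondrial adenylate kinase, was at 7.04, 30.7, 7.60 and 7.62 CPM in NCTAD and 15.9, 49.4, 13.0 and 11.8 CPM in cIDR. All 3 cIDR libraries outside batch 2 exceeded the NCTAD libraries outside it, and the difference was 0.83 ± 0.20 (edgeR adjusted p = 0.785). It passed in edgeR on the 8 libraries alone (0.81, adjusted p = 0.0109) and with no low-count filter (0.84, adjusted p = 0.0122). ALDOC, the brain-type aldolase of glycolysis, stood at 0.29 ± 0.074. GBE1, the glycogen branching enzyme, stood at 0.25 ± 0.066, with only 0.026 in batch 4. HMOX1, which degrades heme, was at 2.72 to 5.94 CPM in NCTAD and 4.47 to 8.40 CPM in cIDR, a difference of 0.51 ± 0.12.

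PDE4C, CSH2, TNIP1 and ID1 made up the rest of the 12 above zero. PDE4C, a cyclic AMP phosphodiesterase, was at 2.83, 21.4, 3.93 and 3.25 CPM in NCTAD and 8.07, 35.3, 6.06 and 6.16 CPM in cIDR. Batch 2 was again the high library of both forms, and the difference was 0.93 ± 0.18 (edgeR adjusted p = 0.441). CSH2, a placental lactogen gene, was at 13.4, 6.48, 21.0 and 16.5 CPM in NCTAD and 22.6, 12.4, 33.9 and 36.4 CPM in cIDR. Here batch 2 was the low library of both forms. The difference was 0.87 ± 0.16 (edgeR adjusted p = 0.321), and the counts are uncertain because CSH2 has near-identical neighbours in the growth hormone cluster. TNIP1, an inhibitor of NF-κB signalling, stood at 0.30 ± 0.059 and ID1, an inhibitor of helix-loop-helix factors, at 0.18 ± 0.048. In DESeq2 with batch PDE4C (adjusted p = 0.000497), CSH2 (0.000111) and TNIP1 (0.00128) passed the threshold. They also did so in edgeR with no low-count filter (adjusted p = 0.0021, 0.000533 and 0.049), as did CSH2 on the 8 libraries alone (0.00266).

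CXCR4 (ENSG00000121966.8, chr2:136114349-136118149), the chemokine receptor for CXCL12, lay farthest below zero among the described genes. It was at 7.92, 6.44, 4.33 and 4.80 CPM in NCTAD and 3.14, 2.80, 1.37 and 1.51 CPM in cIDR, with 1.98, 0.894, 1.54 and 0.966 CPM in WT. Every NCTAD library was above every cIDR library, and batch 2 was not the extreme of either form. The difference was −1.46 ± 0.30, or 2.75-fold higher in NCTAD (edgeR adjusted p = 0.470), and it was −1.19 to −1.64 in the 4 batches. In the fit to the 8 libraries alone (−1.44, adjusted p = 0.00266), in DESeq2 with batch (−1.46, adjusted p = 0.00128) and with no low-count filter (−1.45, adjusted p = 0.00346) it passed the threshold.

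C2CD4A (ENSG00000198535.5, chr15:62066977-62070917), a nuclear protein gene induced by inflammatory signals, was at 7.22, 12.1, 4.65 and 4.09 CPM in NCTAD and 2.25, 9.35, 1.72 and 1.13 CPM in cIDR. NCTAD was higher in each batch, but the batch 2 library of cIDR exceeded 3 NCTAD libraries, so the forms overlapped. The difference was −1.35 ± 0.24, or 2.54-fold higher in NCTAD (edgeR adjusted p = 0.321), with −0.37 in batch 2 and −1.41 to −1.82 in the others. Without NCTAD replicate 2 it was the one gene called, at −1.67 (edgeR adjusted p = 0.00125), and PFKP was then not called. It also passed in DESeq2 with batch (−1.37, adjusted p = 3.8e-05) and in edgeR with no low-count filter (−1.34, adjusted p = 0.00062). On log2(TPM + 1) it was −0.73, and −0.95 with no batch term.

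GALNT18, which starts mucin-type glycans, was at 2.65, 4.16, 2.10 and 2.69 CPM in NCTAD and 0.893, 3.24, 1.12 and 1.38 CPM in cIDR, a difference of −0.92 ± 0.19. COL6A5, a collagen VI chain, was at 3.88, 1.74, 4.58 and 3.66 CPM in NCTAD and 2.17, 0.669, 2.41 and 2.51 CPM in cIDR, a difference of −0.88 ± 0.19. In batch 2 GALNT18 was highest and COL6A5 lowest within each form, and both genes overlapped between forms. XYLT1, which starts proteoglycan chains, stood at −0.64 ± 0.15, the fibrillin gene FBN1 at −0.37 ± 0.097 and the integrin subunit gene ITGB5 at −0.28 ± 0.066. MGP, the matrix Gla protein that limits calcification, was at 20.0, 23.4, 22.0 and 20.7 CPM in NCTAD and 12.7, 18.0, 19.2 and 17.7 CPM in cIDR, with no overlap and a difference of −0.37 ± 0.095. The guidance protein gene SEMA5B stood at −0.41 ± 0.095, the corepressor gene TLE3 at −0.29 ± 0.071, the ubiquitin-conjugating enzyme gene UBE2QL1 at −0.27 ± 0.071 and PPP1R3B, a glycogen-targeting phosphatase subunit, at −0.27 ± 0.072. In DESeq2 with batch GALNT18 (adjusted p = 0.0252), COL6A5 (0.0203) and ITGB5 (0.0291) passed the threshold. On log2(TPM + 1) and log2(TPM + 0.1), GALNT18 was −0.47 and −0.85, COL6A5 −0.24 and −0.57, XYLT1 −0.11 and −0.33, SEMA5B −0.17 and −0.22 and TLE3 −0.46 and −0.47. FBN1 was −0.23 on log2(TPM + 1). The edgeR adjusted p-values of the 23 described genes other than PFKP lay between 0.321 and 1.

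**Figure D3:**
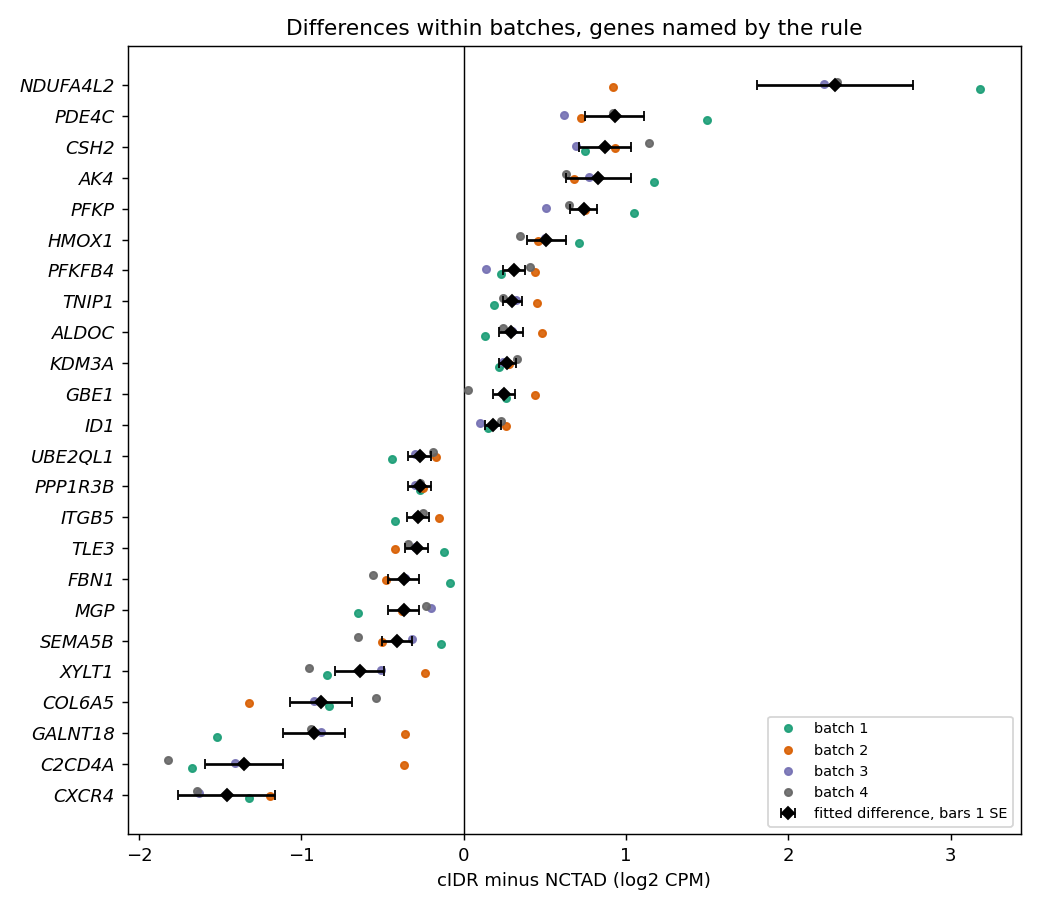
Differences between cIDR and NCTAD (log2 CPM, x axis) for the 24 described genes, with 1 coloured point per batch and the fitted difference ± 1 SE in black. Every point lies on the same side of zero as its gene's fitted value, as the choice of genes requires, and the batches spread most for NDUFA4L2 (0.92 to 3.18) and C2CD4A (−1.82 to −0.37).

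Setting each form against the same 4 WT libraries shows on which side of WT the 2 forms parted. These values share the WT libraries, so they are not independent of each other. The genes were also chosen by the cIDR minus NCTAD difference in these same libraries. That choice by itself favours forms that lie at unlike distances from WT, so the p-values against WT are descriptive. PFKP was higher than WT with cIDR by 0.89 ± 0.085 (edgeR adjusted p = 0.000161) and stood at 0.15 ± 0.086 with NCTAD (adjusted p = 0.920). NDUFA4L2 was higher with cIDR by 3.13 ± 0.51 (adjusted p = 0.00953) and stood at 0.84 ± 0.52 with NCTAD (adjusted p = 0.952). AK4 was higher with cIDR by 1.73 ± 0.21 (adjusted p = 0.000908) and stood at 0.90 ± 0.21 with NCTAD (adjusted p = 0.111). TNIP1 and PFKFB4 passed the threshold against WT with both forms: TNIP1 by 0.61 with cIDR and 0.31 with NCTAD, PFKFB4 by 0.67 and 0.36.

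On the lower side, CXCR4, GALNT18, COL6A5, SEMA5B, ITGB5 and C2CD4A passed the threshold against WT with NCTAD in edgeR, and C2CD4A alone also with cIDR. CXCR4 was higher than WT with NCTAD by 2.10 ± 0.32 (edgeR adjusted p = 0.00483) and stood at 0.64 ± 0.33 with cIDR (adjusted p = 0.952). GALNT18 was higher with NCTAD by 1.41 ± 0.19 (adjusted p = 0.00263) and stood at 0.48 ± 0.20 with cIDR (adjusted p = 0.823). C2CD4A was higher with both forms, by 2.69 ± 0.26 with NCTAD (adjusted p = 0.000196) and 1.35 ± 0.26 with cIDR (adjusted p = 0.0339). MGP stood at 0.36 ± 0.095 with NCTAD and −0.0011 ± 0.096 with cIDR, and neither passed the threshold. XYLT1, TLE3, UBE2QL1, PPP1R3B and FBN1 likewise passed it with neither form. A gene past the threshold with one form and not with the other is not thereby shown to differ between them, and the direct test of the forms called PFKP alone in edgeR with batch over 16 libraries, while the other fits named above also called others, among them CXCR4, C2CD4A, GALNT18 and TNIP1.

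**Figure D4:**
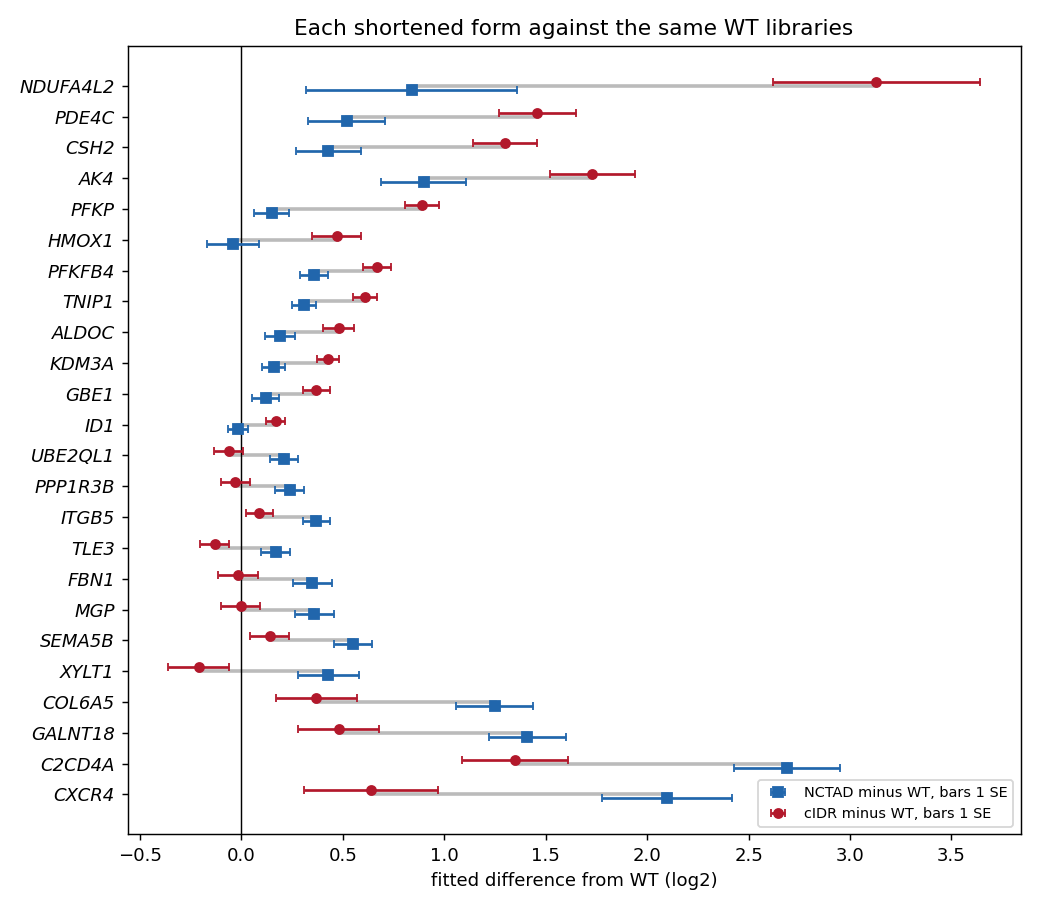
Fitted difference of each form from the same 4 WT libraries (log2, x axis, bars 1 SE) for the 24 described genes, NCTAD as blue squares and cIDR as red circles. In the upper 12 genes cIDR lies to the right and in the lower 12 NCTAD does, as the choice of genes fixes, with 0.89 and 0.15 for PFKP and 0.64 and 2.10 for CXCR4 (cIDR and NCTAD).

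Beyond single genes, 10 pathway lists were described by their counts and medians, with members at an unadjusted p under 0.05 read against 1.09% higher and 1.06% lower over all genes. Of the 37 tested genes of the hypoxia list, 10 (27.0%) were at that p above zero and 0 below it, and none was called by edgeR with batch over 16 libraries. On the 8 libraries alone edgeR called 3 of the list, NDRG1, PPFIA4 and AK4, with no low-count filter 1, AK4, and DESeq2 with batch 1, KDM3A. The 10 were KDM3A, PLOD2, AK4, PPFIA4, P4HA1, FUT11, SLC2A3, BNIP3L, BHLHE40 and DDIT4. In 17 of 37 (45.9%) cIDR was higher in 4 of 4 batches, and in none was it lower in all 4, against 4.38% and 6.05% of all genes. The list's median difference was 0.10, against −0.007 for all genes, and by batch it was 0.14, 0.23, 0.094 and 0.042. Without cIDR replicate 2 the median was 0.062, with 9 members above and 0 below zero at that p, and without the whole of batch 2 it was 0.085, with 8 above and 2 below. Without batch as a term 0 of the 37 were at that p. PLOD2, a collagen lysyl hydroxylase, stood at 1.14 ± 0.25 (0.34 on log2(TPM + 1)) on low levels of 0.279 to 1.47 CPM in NCTAD and 0.947 to 2.68 CPM in cIDR. PPFIA4, a liprin, stood at 0.85 ± 0.24, the neuronal glucose transporter gene SLC2A3 at 0.39 ± 0.14 and the prolyl hydroxylase subunit gene P4HA1 at 0.25 ± 0.072.

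The glycolysis list had a median of 0.091 over 21 genes, with 6 (28.6%) at an unadjusted p under 0.05 above zero, 0 below, and 1 called, PFKP. The others were PFKFB4, ALDOC, PDK1 (0.40 ± 0.12), ALDOA (0.13 ± 0.052) and ENO2 (0.12 ± 0.053). PDK1, which keeps pyruvate out of the mitochondrial citrate cycle, was at 4.92, 25.6, 3.40 and 3.38 CPM in NCTAD and 5.28, 38.8, 4.92 and 4.09 CPM in cIDR. cIDR was higher in each batch, with overlap between forms, and the difference was 0.22 on log2(TPM + 1). The glucose transporter gene SLC2A1 lay on the other side at −0.18 ± 0.13. By batch the list's median was −0.010, 0.27, 0.11 and 0.035. Without NCTAD replicate 3 it was 0.059, without cIDR replicate 2 it was 0.039, with 4 members above and 0 below zero at that p. Without the whole of batch 2 it was 0.044, with 3 above and 1 below. Without batch 1 there were 12 members above zero at that p and without batch 4 there were 8, while without batch as a term 0 of the 21 were at that p.

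Genes often assigned to HIF-2 rather than HIF-1 formed a list of their own, led by CXCR4 and FLT1. Of 20 listed genes 12 were tested, EPO, KDR, TEK, DLL4, ACKR3, TGFA, POU5F1 and CYBRD1 being too low, and the median was −0.029. The 2 (16.7%) at an unadjusted p under 0.05 were CXCR4 and FLT1, both lower in cIDR and both without overlap, as were 0.410% of all genes. Without batch as a term 0 were above and 1 below zero at that p. Without batch 3 or without batch 4, where 13 were tested, 1 was above and 1 below. FLT1, a VEGF receptor, was at 2.16, 2.26, 3.58 and 3.18 CPM in NCTAD and 1.71, 1.85, 1.99 and 2.05 CPM in cIDR, a difference of −0.53 ± 0.22 (edgeR adjusted p = 1). On log2(TPM + 1) and log2(TPM + 0.1) it was −0.13 and −0.29. The lipid droplet gene PLIN2 stood at 0.11 ± 0.057 and the cell cycle gene CCND1 at −0.0038 ± 0.056. EPO, the erythropoietin gene and a classical HIF-2 target, fell under the filter with 1, 8, 3 and 3 counts in NCTAD and 13, 99, 6 and 5 in cIDR. Its cIDR count was the higher one in each batch, and batch 2 held the highest count of both forms. With no low-count filter its difference was 2.5 ± 0.65 (edgeR adjusted p = 0.386, unadjusted p under 0.05). The difference between this list and the hypoxia list was not tested.

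Lineage, interferon, stress and cell cycle lists gave no called gene. In the adrenergic list of 18 genes, 1 (TBX2, 0.12 ± 0.053) was above zero at an unadjusted p under 0.05 and 2 below, the receptor kinase ALK at −0.38 ± 0.12 and the dopa decarboxylase gene DDC at −0.11 ± 0.046. Without batch as a term 0 of the 18 were at that p. The counts above and below were 3 and 1 without batch 1, and 0 and 3 without cIDR replicate 1. ALK was −0.047 on log2(TPM + 1) and −0.076 on log2(TPM + 0.1), with a mean of 1.08 TPM in NCTAD and 1.00 TPM in cIDR. Above zero stood 10 of the 18, against 8988 of all 19530 genes. In 2 of 18 (11.1%) cIDR was higher in 4 of 4 batches, and in 5 (27.8%), ALK, DDC, DBH, TH and CHGA, it was lower in all 4, against 4.38% and 6.05% of all genes. The mesenchymal list had 11 of 18 genes tested and 1 at that p, the repressor gene SNAI2 at 0.28 ± 0.12, and the interferon list had 15 of 19 tested and 1 at that p, IFI27 at 0.55 ± 0.24. IFI27 was higher in cIDR in 3 of 4 batches, with −0.033 in batch 3, and was 0.33 without batch 1 and 0.85 without NCTAD replicate 3. With batch 1, 2 or 4 left out, 0 of the 15 interferon genes were at that p. Of 17 genes for stress of the endoplasmic reticulum and amino acid supply and 18 proliferation genes, 0 were at that p. Medians were 0.0055 for the adrenergic, 0.049 for the mesenchymal, 0.0054 for the interferon, −0.031 for the stress and −0.011 for the proliferation list, and each of these 5 medians changed sign under at least 1 alternative.

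**Figure D5:**
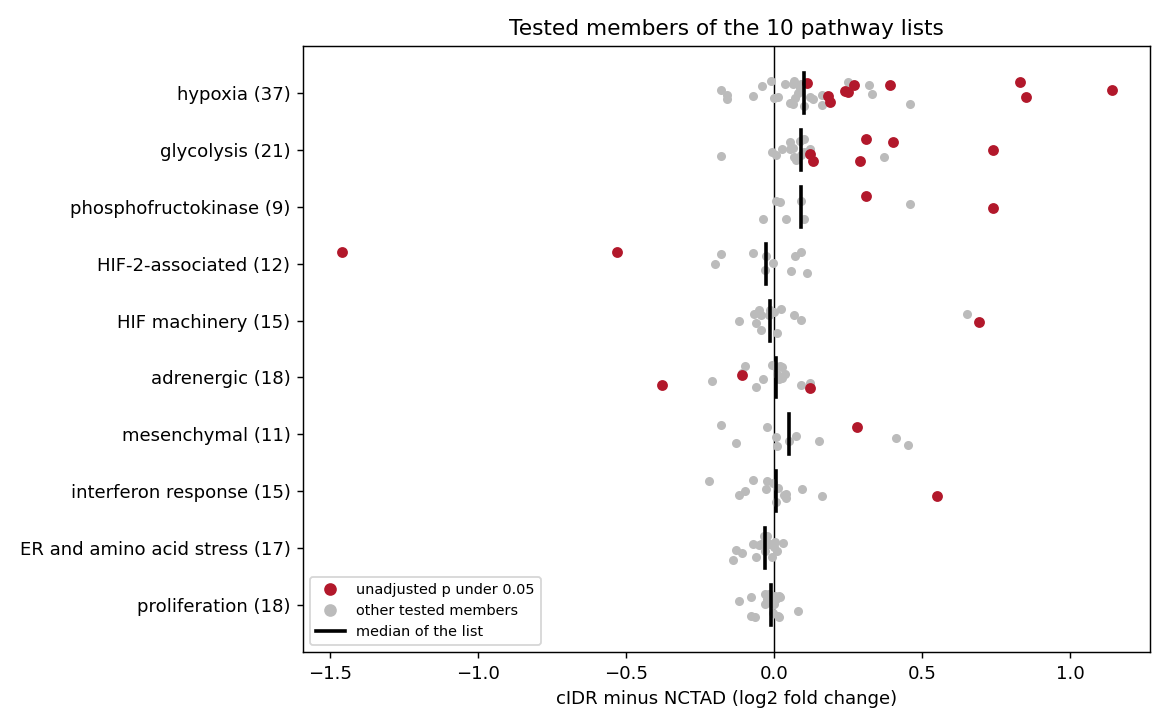
Each point is a tested gene of 1 of the 10 pathway lists (rows, number tested in brackets) at its cIDR minus NCTAD difference (log2 fold change, x axis), red at an unadjusted p under 0.05, with a black bar at the list's median. Hypoxia and glycolysis hold 10 and 6 red points, all above zero, and the HIF-2-associated list holds 2, CXCR4 and FLT1, below zero.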

How the data were processed

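RNA-seq libraries of 4 groups with 4 replicates each were used. The estimated counts per gene were deposited by the authors without scaling for depth or length, and the deposited TPM values are scaled to a common sum per library. The submitters' processing notes name fastp, STAR, Salmon, featureCounts and GRCh38 without role or version; other steps are not given in the sources used here. Of the estimated counts 15.5% were not whole and were rounded. No per-sample column lacked a label.

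Counts were fitted with edgeR 4.0.16 in R 4.3.3 (TMM, filterByExpr by group, glmQLFit and glmQLFTest, two-sided) over all 16 libraries with group and batch as terms, and the contrast cIDR minus NCTAD was adjusted by Benjamini-Hochberg over 19530 genes. SEs were derived from the F statistic and the log2 fold change. Log2 CPM used a prior count of 2. A count of 0 allows up to 0.0528 to 0.0812 CPM (3 counts, counting error only) in the 8 libraries. The test was run on simulated data with known fold changes first.

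Batch is given in the labels. Deviations from the group mean correlated between same-numbered cIDR and NCTAD libraries by 0.283, 0.674, 0.180 and 0.211 across genes, which are not independent replicates. No replicate pair was a copy (chi-square per degree of freedom at least 6.71). A fit without batch is the usual default for groups that share replicate numbers. Batch was put into the model because the labels name it, at a time when earlier results were already known to call 1 gene with it and 0 without it. The members, lists and rules were likewise chosen with earlier results of these data known.

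Genes were named by rule: every called gene; the 12 per side with the smallest unadjusted p among genes with a symbol, a mean of at least 1 log2 CPM and the same sign in 4 of 4 batches; MYCN, ARNT, HIF1A and EPAS1; and the 4 tested members of each pathway list with the smallest p, with all of the phosphofructokinase list. Other list members named, and those under the other observations, were picked after their values were seen, and 1 gene of that kind is not reported here. Gene positions and promoters are RefSeq's, GRCh38.p14; the promoter table lists starts of some transcripts only.

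Alternatives were no batch term, the 8 libraries alone, median-of-ratios factors, DESeq2 1.42.0, other low-count filters, limma 3.58.1 on log2(TPM + 1) and log2(TPM + 0.1), a minimum fold change, and leaving out each library or batch. DESeq2 without batch, and list counts under alternatives, were added after seeing the data. Figures used matplotlib 3.10.9.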

Additional observations from a re-analysis of the deposited data

Results flagged for a closer look

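The library of batch 2 stood apart from the other 3 libraries of its form in many of the named genes. A library is listed here where its gap to the nearest other library, divided by the range of the 4, exceeded Dixon's 95% critical value, which chance passes in about 1 in 20 groups. Of 126 groups of 4 libraries examined (each named gene in each form), 37 passed it, and in 36 the library was that of batch 2. The same count over all genes tested was not made, so the 37 cannot be read as particular to the named genes. These flags overlap in what they show, since the libraries are the same ones.

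The batch 2 library was the highest of its form for 35 of 37 tested hypoxia genes in NCTAD and 36 in cIDR, and for 15 and 18 of 21 glycolysis genes, against 37.1% and 38.7% of all genes tested. It was the lowest for 8 of 12 HIF-2-associated genes and 13 of 18 proliferation genes in each form, against 33.6% and 35.8% of all genes. PFKP was at 32.9 CPM in NCTAD and 55.2 CPM in cIDR, PFKFB4 at 36.5 and 49.5 CPM, PFKFB3 at 34.6 and 42.6 CPM and PDK1 at 25.6 and 38.8 CPM, each in batch 2. The same libraries held 75.5 and 143 CPM of NDUFA4L2, 30.7 and 49.4 CPM of AK4, 18.2 and 26.6 CPM of PPFIA4 and 3.09 and 4.70 CPM of HIF3A. PDE4C was at 21.4 and 35.3 CPM and SEMA5B at 21.1 and 14.9 CPM. GBE1 passed the criterion in NCTAD (52.4 CPM), and PFKL (71.3 CPM), C2CD4A (9.35 CPM) and FBP1 (2.90 CPM) passed it in cIDR. Batch 2 was the highest library of the other form as well, at 71.1 CPM of GBE1 in cIDR and at 60.1, 12.1 and 3.27 CPM of PFKL, C2CD4A and FBP1 in NCTAD.

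Of the 17 genes for stress of the endoplasmic reticulum and amino acid supply, 12 were highest and 5 lowest in batch 2 in each form. The 4 members named here passed the criterion in both forms. The asparagine synthetase gene ASNS was at 306 CPM in NCTAD and 235 CPM in cIDR, against at most 81.1 and 85.2 CPM in the other batches. PSAT1, of serine synthesis, was at 513 and 414 CPM, TRIB3, a stress-induced pseudokinase, at 120 and 85.6 CPM and XBP1, a factor of the unfolded protein response, at 226 and 200 CPM. In cIDR the batch 2 library was low for TIGAR (16.3 CPM), TBX2 (122 CPM), CCNE2 (11.5 CPM) and PCNA (220 CPM, against 295 to 306 CPM). The exception to batch 2 was IFI27, at 1.35 CPM in cIDR replicate 1 against 0.955 to 1.02 CPM in the others.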

How the results depend on the processing

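The number of genes called was 1 with the replicate block (batch as a term) in edgeR over 16 libraries and 0 with no replicate block, where 63 genes were higher and 56 lower in cIDR at an unadjusted p under 0.05, and DESeq2 without the block, added after seeing the data, called 3 and had 55 and 50. It was 10 with the 8 libraries alone, 21 with DESeq2 and the block, 13 with no low-count filter (367 higher in cIDR at an unadjusted p under 0.05), and 0 on either TPM scale or with an absolute log2 fold change of at least 1 required as well. All 3 calls of DESeq2 without the block, 9 of the 21 with it, 1 of the 10 and 2 of the 13 are genes with a mean under −2 log2 CPM or under the filter, whose fitted differences of at least 7.92 in absolute size cannot be read as sizes. Leaving out 1 library or batch gave 0 to 2 calls, 147 to 542 genes higher and 159 to 576 lower at an unadjusted p under 0.05; the count was 0 without NCTAD replicate 1 or batch 2, 3 or 4, and both largest unadjusted counts came without batch 1. Median-of-ratios factors and a minimum of 10 counts in every library called 1. The edgeR calls on the 8 libraries alone included genes not named by the rule. These were among them: TRIM29 (0.73 ± 0.063, adjusted p = 0.00266), higher in cIDR, and GRIK3 (−0.42 ± 0.052, adjusted p = 0.0237), lower in cIDR. PFKP kept its call in 12 of 21 alternatives.

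EPAS1 was called only with the 8 libraries alone (0.70, adjusted p = 0.00266) and stood at 0.47 to 0.88 with a library or batch left out. Medians of the hypoxia and glycolysis lists stayed above zero in 21 of 21 alternatives. Medians of the adrenergic (−0.011 to 0.028), mesenchymal (−0.011 to 0.17), interferon (−0.023 to 0.071), stress (−0.064 to 0.018), proliferation (−0.027 to 0.015) and HIF machinery (−0.027 to 0.037) lists changed sign. The HIF-2-associated median did not keep its sign: 0.014 with no replicate block, 0.013 in DESeq2 without it, 0.040 with no filter, and −0.045 to 0.028 with a library or batch left out. On log2(TPM + 1) and log2(TPM + 0.1), TIGAR was −0.23 and −0.25, HIF3A −0.12 and −0.26, FN1 0.027 and 0.039 and PFKM −0.0088 on both. FBP1 was −0.015 on log2(TPM + 1), −0.036 with no replicate block and −0.041 in DESeq2 without it. With a library or batch left out, FBP1 ranged from −0.095 to 0.14, TIGAR from −0.038 to 0.052, PFKM from −0.0096 to 0.032, PFKFB2 from −0.12 to 0.066 and PFKFB3 from −0.018 to 0.17. The cause of these shifts was not tested. Depth limits genes near 1 CPM, such as PLOD2 and FBP1.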

Other observations

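Some genes under the expression minimum used for naming had fitted differences of more than 1 on the log2 scale. They were picked after their values were seen, so the values are a description, and most lie near the low end of what these libraries measure. ANGPTL4, a lipoprotein lipase inhibitor known as a hypoxia target, was at 0.441, 4.12, 0.869 and 0.731 CPM in NCTAD and 1.54, 7.94, 1.76 and 2.12 CPM in cIDR. Each cIDR library was above the NCTAD library of its batch, and the difference was 1.33 ± 0.31 (edgeR adjusted p = 0.748; DESeq2 with batch, adjusted p = 0.0167). NRN1, the neurite growth gene neuritin, stood at 1.41 ± 0.29 and THBS4, a thrombospondin gene, at 1.20 ± 0.30.

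On the other side, TNFRSF10D, a decoy receptor for the death ligand TRAIL, was at 1.60, 1.13, 1.12 and 1.03 CPM in NCTAD and 0.595, 0.352, 0.436 and 0.248 CPM in cIDR. No library of one form overlapped the other, and the difference was −1.60 ± 0.39 (edgeR adjusted p = 0.785). ELFN1, a synaptic adhesion protein gene that was above the minimum but not among the 12 genes described per side, was at 4.41, 9.51, 3.87 and 3.83 CPM in NCTAD and 1.81, 6.87, 2.39 and 1.24 CPM in cIDR. Its difference was −1.04 ± 0.31 (edgeR adjusted p = 1), and against the shared WT libraries it was higher with NCTAD by 3.18 ± 0.35 (adjusted p = 0.000435) and with cIDR by 2.13 ± 0.36 (adjusted p = 0.0106).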
